A study of Mus musculus with 2 samples.

Results

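The 38 genes described here are transcripts of dividing cells, 18 of DNA synthesis (S genes), 18 of the G2 phase and mitosis (G2M genes) and the pair Stmn1 and Hmgb2, kept apart from both sums. They were chosen by name, and all 38 were found among the 32285 genes of the count matrices. The cells came from subcutaneous syngeneic fibrosarcomas of WT C57BL/6 mice, which were digested with collagenase and DNase and passed over a magnetic column. The iron-positive group is the eluate that the column retained and the iron-negative group is its flowthrough. Both groups share strain, genotype and tumor, and the labels name no drug or other agent for either. Each group is 1 single-cell library, so no value has a replicate check and no test was made. How many tumors or mice were pooled, the age of the mice and the name of the tumor line are not given in the sources used here. The column is the only measure of iron in these data, so a cell held back for another reason counts as iron-positive.

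A cell that enters S phase loads the MCM helicase onto its origins, opens the helix and copies the DNA, for which it needs the clamp Pcna and enzymes that supply nucleotides. It then raises cyclin A and cyclin B, which drive the kinase Cdk1, and builds a spindle under the Aurora and Polo kinases. S-phase genes are classic targets of the E2F factors, and G2M genes are classic targets of a complex that binds a promoter element called CHR, often with CCAAT boxes nearby. Tissue macrophages are known to renew by local division as well as from monocytes that arrive from the blood, and neutrophils in tissue are known not to divide.

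The promoters of the members are shown first, since the results treat the S and G2M genes as separate groups that were chosen by name. RefSeq promoter windows on GRCm38.p6, running from 250 bases before to 50 after the start, were found for 32 of the 38 members (16 S genes in 18 windows, 15 G2M genes and Hmgb2). The words searched on both strands were TTTGAA or TTCGAA for CHR, CCAAT, and TTTGGCGC, TTTGCCGC, TTTCGCGC or TTTCCCGC for E2F. A CHR word was in 11 of the 15 G2M windows and in 2 of the 18 S windows, against 19.2% of all 32851 windows. An E2F word was in 9 of the 18 S windows and in 1 of the 15 G2M windows, against 2.26% of all windows. CCAAT was in 13 of 15 G2M and 12 of 18 S windows, against 37.4% of all. A match is a description of the letters and not evidence of binding, and a window with no match says nothing of the factor. The stretches below, picked after the matches were seen, show 3 G2M and 3 S promoters, with the matched words in capitals (ATTGG is CCAAT on the other strand, and a longer run of capitals holds overlapping E2F matches).

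Ccnb2 (cyclin B2, minus strand, chr9:70421540-70421654): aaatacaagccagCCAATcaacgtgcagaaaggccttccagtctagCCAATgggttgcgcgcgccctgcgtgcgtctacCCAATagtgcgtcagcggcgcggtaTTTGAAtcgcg
Bub1 (spindle checkpoint kinase, minus strand, chr2:127831835-127831939): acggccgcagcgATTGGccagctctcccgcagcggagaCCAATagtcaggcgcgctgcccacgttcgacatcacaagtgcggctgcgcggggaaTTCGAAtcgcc
Cdk1 (the kinase of mitotic entry, minus strand, chr10:69352913-69353052): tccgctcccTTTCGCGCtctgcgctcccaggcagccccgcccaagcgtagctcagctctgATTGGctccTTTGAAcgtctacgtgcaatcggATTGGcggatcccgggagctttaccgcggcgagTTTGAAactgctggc
Mcm6 (helicase subunit, minus strand, chr1:128359706-128359825): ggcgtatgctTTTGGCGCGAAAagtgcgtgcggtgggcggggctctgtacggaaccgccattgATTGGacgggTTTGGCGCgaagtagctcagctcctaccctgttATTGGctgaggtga
Mcm5 (helicase subunit, plus strand, chr8:75109349-75109508): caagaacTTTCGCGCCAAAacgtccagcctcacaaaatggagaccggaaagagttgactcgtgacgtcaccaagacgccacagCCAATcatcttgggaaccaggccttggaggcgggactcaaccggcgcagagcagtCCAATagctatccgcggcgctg
Hells (chromatin remodeler, plus strand, chr19:38930910-38930989): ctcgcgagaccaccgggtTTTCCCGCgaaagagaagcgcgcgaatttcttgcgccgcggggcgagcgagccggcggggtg

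The Ccnb2 and Bub1 stretches held 1 CHR word each, beside 3 and 2 CCAAT words, and the Ccnb2 window held another CHR word upstream of its stretch. Cdk1 had 2 CHR words and also the only E2F word among the G2M windows. Mcm6 and Mcm5 had E2F and CCAAT words and no CHR word in these stretches.

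The iron-negative library held 10124 barcodes and the iron-positive library 13668, with 132796517 and 129921053 UMIs (unique molecular identifiers, 1 for each captured transcript). At a mitochondrial share of at most 15%, 9404 iron-negative cells (median 13016 UMIs) and 12146 iron-positive cells (median 7345.5 UMIs) were kept. Of the barcodes, 85 occurred in both libraries, 80 of them among kept cells. Marker gates gave 8883 iron-negative and 8089 iron-positive phagocytes, 64 and 228 mesenchymal, 9 and 468 endothelial, 1 and 103 pericyte, 20 and 50 T or NK, and 12 and 51 neutrophil cells. Cells that passed no gate were unassigned (373 and 2656) and cells with markers of more than 1 class were mixed (42 and 501). Phagocyte markers summed to 276 and 254 UMIs per 10000 in the phagocytes they gated and to 98.8 and 112 in the neutrophils. Intervals in parentheses are exact 95% intervals and cover counting error only.

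Summed over the phagocytes, the monocytes and macrophages of the tumor, S genes were lower in the iron-positive library and G2M genes were close to level. The S sum was not lower in every phagocyte state, as given below. The 18 S genes summed to 758 CPM (counts per 1000000 UMIs; 753 to 763) in iron-negative and 635 CPM (630 to 640) in iron-positive phagocytes, a log2 ratio of -0.26 (-0.27 to -0.24). The 18 G2M genes summed to 669 CPM (664 to 673) and 610 CPM (604 to 615), a log2 ratio of -0.13 (-0.15 to -0.12). The median log2 ratio of all 7711 genes measured in these cells was -0.11, so the G2M sum lay near it and the S sum below it. The G2M difference depended on the limits that the gate set on marker levels. With cells taken by the number of markers alone, the first gate looked at, the sums were 690 and 691 CPM (log2 0.0011). The S sums stayed apart there, at 774 and 676 CPM. That gate set no limit on marker levels, its own or those of other classes, and took 9021 and 9125 cells. With 5 markers in place of 8 and those limits kept, the log2 ratio of the G2M sum was -0.14.

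Of the 38 members, 36 reached 10 CPM in the phagocytes of either library. None of the 36 was lower by at least 1.5-fold in the iron-positive library, where 0.519% of all genes were, and none was higher by that much, where 2.15% were. Their median log2 ratio was -0.19. All 16 measured S genes were below 0, with a median of -0.32, and 16 of 18 G2M genes were below 0, with a median of -0.13. Over all genes the median was -0.11 and 75.3% were below 0, so the share of G2M genes below 0 lay near the background.

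Genes that license and open origins of replication are given first. Cdt1, which helps load the MCM ring, was at 47.7 CPM in iron-negative and 36.0 CPM in iron-positive phagocytes (log2 -0.40, -0.47 to -0.34). Cdc6, its partner in loading, was under 10 CPM in both, at 7.48 and 6.49 CPM. Mcm6 was at 47.0 and 33.1 CPM (log2 -0.50, -0.57 to -0.44), the largest log2 difference of the 38 members, or 1.42-fold. The rest of the ring moved the same way. Mcm2 was at 23.7 and 17.8 CPM, and in CPM Mcm3 at 63.0 and 50.4, Mcm4 at 27.3 and 21.2, Mcm5 at 43.7 and 33.1, and Mcm7 at 40.0 and 34.8. Gins2, of the complex that activates the helicase, was at 15.3 and 12.1 CPM. Every gene of the ring was lower in the iron-positive library by 1.15-fold to 1.42-fold.

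Genes of the fork and of nucleotide supply were lower too, by 1.03-fold (Pclaf) to 1.31-fold (Ung). Pcna, the sliding clamp of the polymerases, was at 183 and 163 CPM (log2 -0.17, -0.20 to -0.14). Pclaf, which binds Pcna, was at 86.5 and 83.9 CPM (log2 -0.04, -0.09 to -0.00), the S gene nearest to 0. Both ribonucleotide reductase subunits were lower: Rrm1 was at 65.1 and 50.8 CPM and Rrm2 at 21.6 and 17.9 CPM. Tyms, which makes thymidylate, was at 17.4 and 15.3 CPM, and Dut, which keeps uracil out of DNA, at 27.4 and 24.5 CPM. Ung, which removes uracil from DNA, was under 10 CPM in both (5.46 and 4.17). Hells and Uhrf1, which help to copy DNA methylation to new strands, were at 17.3 and 14.9 CPM and at 19.1 and 15.3 CPM.

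Among the G2M genes, Cdk1 was at 34.3 and 29.8 CPM (log2 -0.20, -0.28 to -0.13). Its cyclins split: Ccna2 was at 24.9 and 21.1 CPM, Ccnb2 at 24.9 and 19.8 CPM (log2 -0.33, -0.42 to -0.25), and Ccnb1 at 13.0 and 13.1 CPM (log2 0.01, -0.11 to 0.11). Ccnb2 had the largest log2 difference of the G2M genes and Ccnb1 none beyond counting error. The mitotic kinases differed by 1.03-fold (Plk1) to 1.14-fold (Aurka). Aurka was at 13.1 and 11.4 CPM, Aurkb at 16.2 and 14.5, Plk1 at 11.1 and 10.8, and the checkpoint kinase Bub1 at 11.6 and 11.0, and the intervals of the log2 ratios of Plk1 and Bub1 included 0.

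The partners of Aurkb in the chromosomal passenger complex, Birc5 and Cdca8, were at 55.0 and 51.7 CPM and at 29.7 and 25.9 CPM. The kinetochore proteins Cenpe and Cenpf were at 33.5 and 28.8 CPM and at 29.3 and 29.6 CPM. The spindle proteins Tpx2 and Nusap1 were at 30.7 and 27.9 CPM and at 30.0 and 30.0 CPM. Nusap1, Cenpf and Ccnb1 were the members nearest to a ratio of 1. Ube2c, which feeds ubiquitin to the complex that ends mitosis, was at 60.2 and 57.8 CPM, and Cdca3, which acts on mitotic entry, at 34.8 and 32.1 CPM. Top2a, which untangles sister chromosomes, was at 126 and 118 CPM, and the proliferation marker Mki67 at 90.5 and 76.1 CPM (log2 -0.25, -0.30 to -0.21). Stmn1, a microtubule regulator, was at 194 and 171 CPM, and Hmgb2, a chromatin protein, at 280 and 255 CPM.

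**Figure D1:**
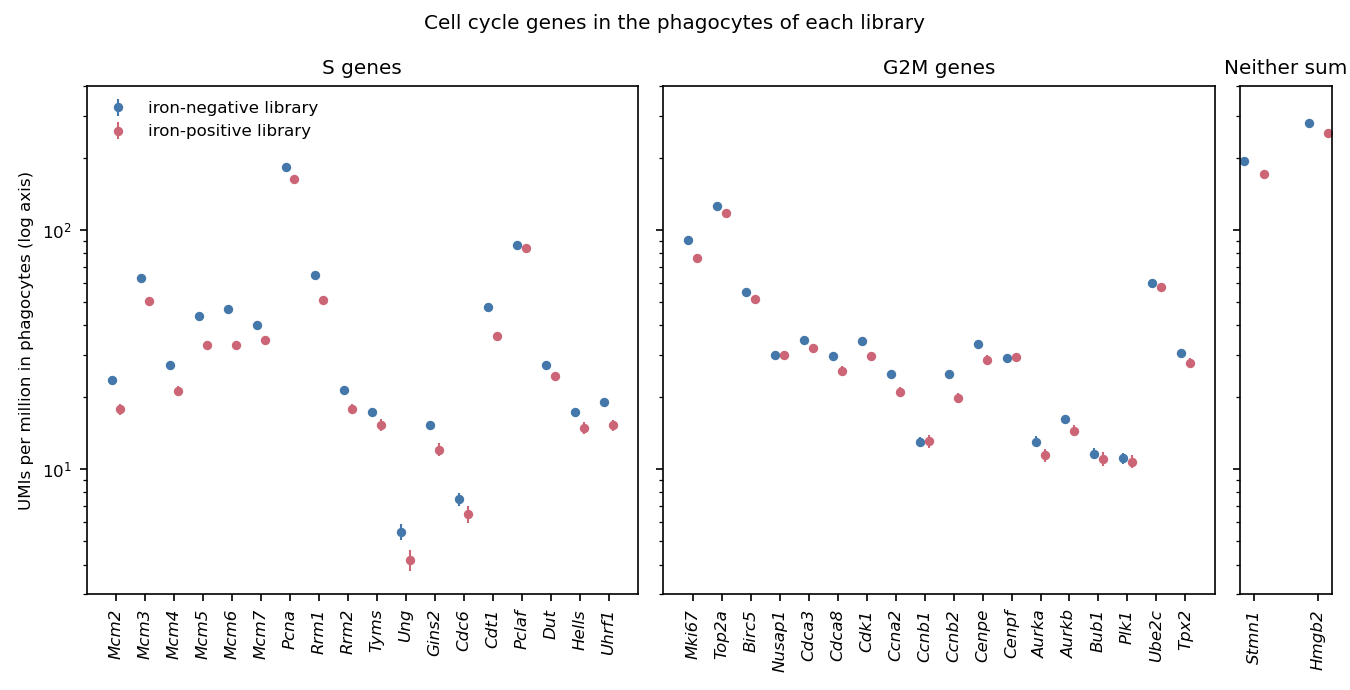
Level of each member in the phagocytes of the iron-negative (blue) and iron-positive (red) library, in CPM on a log axis, with exact 95% counting intervals (mostly smaller than the points). All S genes sit lower in the iron-positive library, while Nusap1, Ccnb1 and Cenpf overlap.

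Among the lists of other cell cycle genes, those of replication and mitosis lay mostly below 0, as did 75.3% of all genes, while histones and CDK inhibitors split. Their median log2 ratios were -0.19 for replication, -0.21 for mitosis, -0.13 for cyclins and G1 regulators, -0.0018 for histones and 0.015 for CDK inhibitors, beside -0.11 for all genes. Of 20 further genes of S phase and replication, 14 were measured and 13 were below 0, with Tk1 at 29.5 and 23.1 CPM, Prim1 at 10.8 and 8.71, and Fen1 at 27.9 and 23.0. Of 31 mitosis genes, 22 were measured and 20 were below 0, with Bub1b at 25.1 and 19.3 CPM, Cenpa at 109 and 87.5, and Incenp at 47.9 and 39.1. Of 13 cyclins, kinases and G1 regulators, 9 of 10 measured were below 0, with Ccnd1 at 157 and 126 CPM, E2f2 at 11.96 and 9.67, and E2f1 at 28.4 and 23.1. Of 7 CDK inhibitors, 4 were measured and split evenly, with Cdkn2c at 12.9 and 10.1 CPM, Cdkn2d at 14.0 and 15.4, and Cdkn1a at 697 and 717. Only Hist1h2ap passed 1.5-fold among all these genes, at 166 and 85.2 CPM (log2 -0.96). The replication histones Hist1h2ae (56.6 and 39.7 CPM) and Hist1h1b (49.3 and 59.2 CPM) went opposite ways. Histone genes have near-identical copies, so how reads were divided among them is uncertain.

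To count cells rather than transcripts, each cell was thinned to 2000 UMIs, and it was called G2M-positive at 3 or more UMIs over the 18 G2M genes and S-positive likewise over the S genes. This threshold sets the size of the shares, so they are not the fraction of cells in division. The order of the endothelial, pericyte and mesenchymal shares changed with the depth and threshold used. Too shallow to be thinned were 307 phagocytes of the flowthrough and 720 of the eluate. G2M-positive cells were 847 of 8576 iron-negative phagocytes (9.88%, 9.25 to 10.5) and 676 of 7369 iron-positive phagocytes (9.17%, 8.52 to 9.86), whose intervals overlapped. S-positive cells were 14.5% (13.8 to 15.3) and 11.2% (10.5 to 11.98), whose intervals did not. The part of the mix of phagocyte states, described below, in this S difference was not tested. Without thinning the G2M shares were 29.2% and 19.6%, at median depths of 13414 and 9786 UMIs. The G2M-positive cells held 80.04% of the G2M UMIs of the iron-negative and 81.7% of those of the iron-positive phagocytes.

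Neutrophils were the class that should lack these transcripts. Their G2M-positive share was 0 of 10 in the iron-negative library, which allows up to 30.0% by the limit of 3 counts, and 0 of 31 in the iron-positive library, which allows up to 9.68% by that limit and 11.2% by the exact interval. Their G2M sums were 61.2 CPM (2 UMIs) and 128 CPM (16 UMIs), at median depths of 2597.5 and 2190 UMIs. The G2M-negative phagocytes of those libraries were at 154 and 127 CPM. Hmgb2 was at 245 CPM (8 UMIs) and 247 CPM (31 UMIs) in neutrophils, beside 280 and 255 CPM in phagocytes, and Pcna was at 91.8 CPM (3 UMIs) and 104 CPM (13 UMIs). Pclaf, the next most frequent member in iron-positive neutrophils, was at 55.8 CPM.

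The endothelial, pericyte and mesenchymal classes of the iron-positive library had higher G2M-positive shares than its phagocytes. Endothelial cells, which line vessels, were G2M-positive in 82 of 427 cells (19.2%, 15.6 to 23.3). Pericytes and smooth muscle cells, which wrap vessels, were positive in 18 of 100 cells (18%, 11.0 to 26.9). Mesenchymal cells, a class that joins fibroblasts and fibrosarcoma cells, were positive in 44 of 198 cells (22.2%, 16.6 to 28.7). All 3 intervals lay above the 9.17% (8.52 to 9.86) of iron-positive phagocytes and overlapped each other. Before thinning the shares were 51.3%, 43.7% and 39.5% at median depths of 16633.5, 18154 and 19979.5 UMIs. By gate on marker counts alone, the pericyte share was 27.8%. Without the 5% of cells with the most UMIs it was 13.8% (7.57 to 22.5), whose interval overlapped the 7.73% (7.11 to 8.38) of phagocytes.

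**Figure D2:**
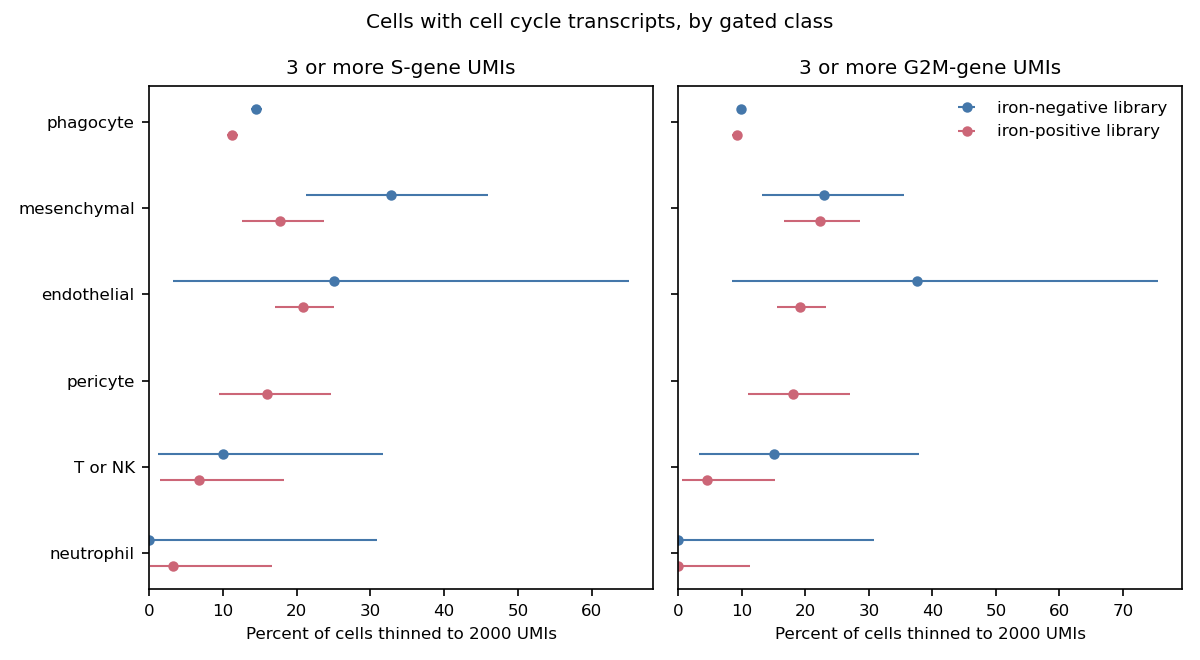
Percent of cells, each thinned to 2000 UMIs, with at least 3 UMIs over the S genes (left) or the G2M genes (right), by class, in the iron-negative (blue) and iron-positive (red) library, with exact 95% binomial intervals. The single iron-negative pericyte is not drawn. Endothelial, pericyte and mesenchymal cells of the iron-positive library sit near 20% for G2M genes, and neutrophils at 0.

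In endothelial cells of the iron-positive library the 18 G2M genes summed to 866 CPM (850 to 882) and the S genes to 832 CPM (816 to 847). The members with the most UMIs there were Stmn1 at 298 CPM, Hmgb2 at 281 CPM and Pcna at 147 CPM. Tyms was at 81.8 CPM in these cells, against 15.3 CPM in phagocytes of the same library. The iron-negative library held 9 endothelial cells, 3 of 8 G2M-positive (8.52% to 75.5%), and 3 cells held 87.4% of their G2M UMIs. That number of cells does not allow a comparison between the fractions.

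Pericytes were found as 103 iron-positive cells and as 1 iron-negative cell. In the iron-positive library their G2M sum was 1570 CPM (1516 to 1625) and their S sum 750 CPM (713 to 788). The ratio of these sums was 2.09, against 0.96 in phagocytes, 1.04 in endothelial and 1.22 in mesenchymal cells. Hmgb2 was at 290 CPM, Ube2c at 244 CPM and Stmn1 at 207 CPM. Cenpf was at 160 CPM and Cenpe at 133 CPM, against 29.6 and 28.8 CPM in the phagocytes. The 3 cells with the most G2M UMIs held 38.2% of the class, and without them the G2M sum was 1054 CPM. With the gate on marker counts alone, 179 cells had sums of 1284 and 782 CPM.

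Mesenchymal cells were the class, after the phagocytes, with enough cells in both libraries to set side by side. The G2M-positive shares were 14 of 61 iron-negative cells (23.0%, 13.2 to 35.5) and 22.2% (16.6 to 28.7) of the iron-positive cells. The S-positive shares were 32.8% (21.3 to 46.0) and 17.7% (12.6 to 23.7), with overlapping intervals. The S sum was 1226 CPM in iron-negative and 864 CPM in iron-positive cells (log2 -0.50, -0.56 to -0.45), and the G2M sum was 1270 and 1050 CPM (log2 -0.27, -0.33 to -0.22). Of the 38 members, all measured, 10 were lower by at least 1.5-fold and none was higher. Over all 8283 genes, 9.37% were lower and 9.43% higher by that much. The members' median log2 ratio was -0.34.

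Of the 10, 9 were S genes, and Cdc6 among them reached 10 CPM only in the iron-negative library. Cdc6 was at 17.7 and 7.31 CPM (log2 -1.28, -1.86 to -0.71) and Hells at 83.5 and 41.1 CPM (log2 -1.02, -1.27 to -0.78). Gins2 was at 38.9 and 20.7 CPM and Mcm6 at 75.5 and 40.5 CPM. The exception was Top2a, at 279 and 180 CPM (log2 -0.64, -0.76 to -0.51). Mki67 was level at 103 and 103 CPM. The other members with the most UMIs were Hmgb2 at 532 and 382 CPM and Stmn1 at 239 and 171 CPM. The class markers summed to 104 per 10000 UMIs in the iron-negative and 219 in the iron-positive cells and the median depths were 49507 and 19979.5 UMIs. The part of either, or of the mix of fibroblasts and tumor cells, in these values was not tested. The 3 cells with the most G2M UMIs held 39.9% and 24.0% of the G2M UMIs of the class. Without these 3 cells in each library the G2M sums were 865 and 853 CPM, so their difference rested on those cells.

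T or NK cells were few. G2M-positive cells were 3 of 20 in the iron-negative (15%, 3.21 to 37.9) and 2 of 45 in the iron-positive library (4.44%, 0.54 to 15.1), and the intervals overlapped. The G2M sums were 1511 CPM (256 UMIs) and 375 CPM (93 UMIs), but 3 cells held 96.9% and 82.8% of those UMIs. Without these 3 cells in each library the sums were 64.4 and 73.3 CPM. With the gate on marker counts alone, 78 iron-positive cells had a G2M sum of 719 CPM. Hmgb2 was at 1381 and 758 CPM, Pcna at 254 and 185 CPM, and Pclaf and Stmn1 both at 161 CPM in the iron-positive cells.

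Summed over all kept cells, some members were higher in the iron-positive library although they were lower or level in its phagocytes. Tyms was at 19.0 CPM in all iron-negative and 27.6 CPM in all iron-positive cells (log2 0.54, 0.47 to 0.62), against -0.18 in phagocytes. Ube2c was at 63.6 and 77.3 CPM (log2 0.28), against -0.06 in phagocytes. Cenpf was at 31.0 and 39.2 CPM (log2 0.34), against 0.01 in phagocytes. Over all kept cells the G2M sums were 691 and 688 CPM. Endothelial cells made up 3.85% of the kept iron-positive and 0.0957% of the kept iron-negative cells, and a value over all cells reflects that mix as well as the level within a class.

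The phagocytes were then divided into 10 states by short lists of genes, each cell taking the state on which it stood highest if it was at least 1 SD above the phagocyte mean. A state cut from a score is a range and not a cell type, and 1704 of the 16972 phagocytes lay within 0.1 SD of the limit. States are named here by genes of their lists. The G2M-positive share was highest in the Fcrls Cx3cr1 state in both libraries, at 305 of 1913 iron-negative cells (15.9%, 14.3 to 17.7) and 139 of 668 iron-positive cells (20.8%, 17.8 to 24.1). Fcrls and Cx3cr1 are genes of resident macrophages such as microglia. The lowest share in the iron-negative library was in the Ly6c2 Plac8 state, whose genes are those of blood monocytes, at 14 of 757 cells (1.85%, 1.01 to 3.08). In the iron-positive library that state had 2.91% (1.64 to 4.76), and the lowest was the Cd209f Cd163 Lyve1 state at 1.94% (1.06 to 3.23), whose interval overlapped it.

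Between these ends, Gbp2b Serpina3g cells, which express genes induced by interferon gamma, had shares of 12.1% (10.1 to 14.2) in the iron-negative and 16.0% (13.3 to 19.0) in the iron-positive library. Cells with type I interferon genes had 10.4% (8.07 to 13.1) and 9.62% (7.25 to 12.5). Cells with no state had 14.7% (12.7 to 16.8) and 16.8% (14.6 to 19.2). In the iron-negative library Retnla Cbr2 (6.31%), Il1r2 Ifitm1 (5.67%), MHC class II (4.96%), Cd209f Cd163 Lyve1 (4.63%) and Mmp9 Pdpn Arg1 cells (4.43%) formed a group of neighbours whose intervals overlapped. In the iron-positive library their shares were 6.50%, 8.74%, 5.57%, 1.94% and 3.81%. In 3 states the share went against the summed G2M level, so no order between the fractions was read for them. These sums were 299 and 447 CPM in Mmp9 Pdpn Arg1, 593 and 693 CPM in type I interferon, and 447 and 361 CPM in Retnla Cbr2 cells.

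**Figure D3:**
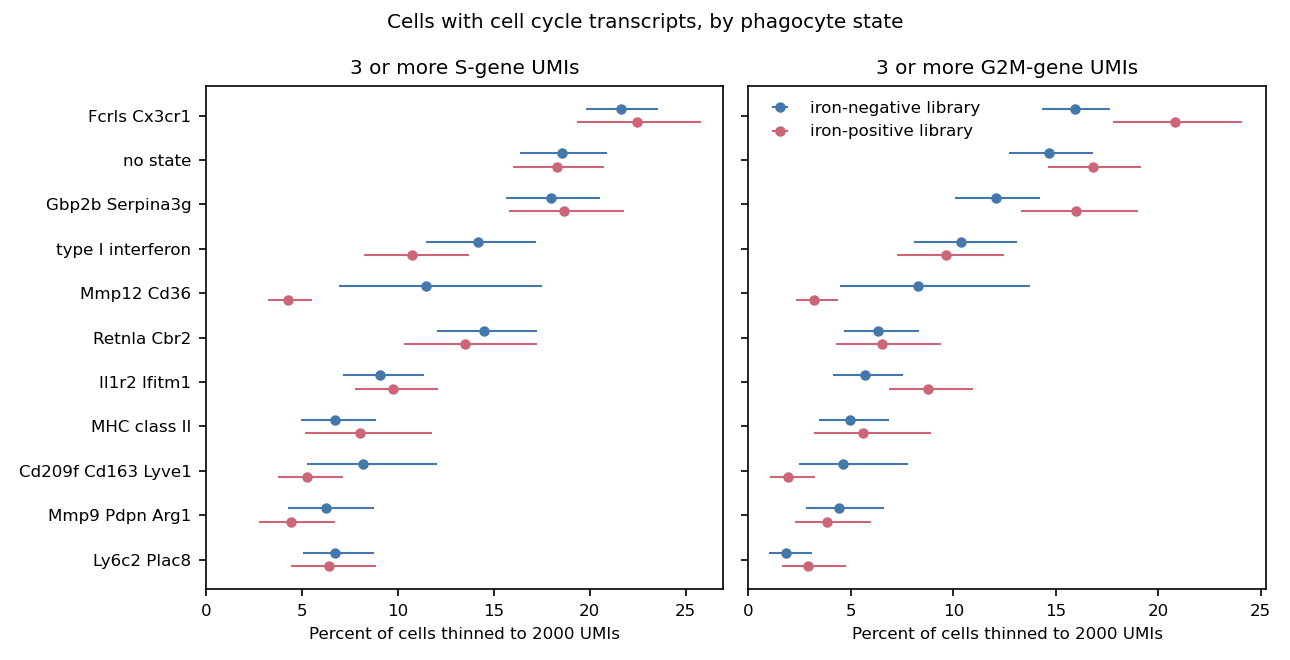
Percent of phagocytes of each state, thinned to 2000 UMIs, with at least 3 UMIs over the S genes (left) or the G2M genes (right), in the iron-negative (blue) and iron-positive (red) library, with exact 95% binomial intervals. Fcrls Cx3cr1 cells are at the top for both, and for Mmp12 Cd36 cells the iron-positive points lie to the left of the iron-negative ones.

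Between the fractions the states went in different directions. Mmp12 Cd36 cells, which carry genes of lipid-laden macrophages, had 13 of 157 G2M-positive cells in the iron-negative (8.28%, 4.48 to 13.7) and 40 of 1244 in the iron-positive library (3.22%, 2.31 to 4.35). Their G2M sum was 531 and 228 CPM (log2 -1.22, -1.32 to -1.12). Of 33 members measured in this state, 30 were lower by at least 1.5-fold (10.2% of all genes were) and none was higher (4.23%). Some of the 33 reached 10 CPM only in the iron-negative library, such as Rrm2 at 21.7 and 6.43 CPM. The others so measured were Mcm2, Tyms, Gins2, Hells, Uhrf1, Nusap1, Ccna2, Ccnb2, Aurka and Aurkb. All of these but Ccnb2 were among the 30. They were measured through the library where they were higher, so the count is no support for the difference. All members were read in the same cells, so they are not separate observations. The median log2 ratio of the 33 members was -1.14, and that of all genes -0.13. This contrast rested on few iron-negative cells: 3 of the 165 held 37.6% of their G2M UMIs. Without the 5% of phagocytes with the most UMIs the sums were 193 and 144 CPM. With the state taken at 2 SD they were 114 CPM (79 cells, 96 UMIs) and 155 CPM, in the opposite direction.

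Cd209f Cd163 Lyve1 cells, which carry scavenger receptor genes of resident macrophages, had G2M sums of 357 and 167 CPM (log2 -1.09, -1.21 to -0.98). In that state 23 of 30 measured members were lower by at least 1.5-fold (5.54% of all genes) and none higher (3.37%). The median log2 ratio of the 30 was -0.91, beside -0.10 for all genes. Some of them, such as Ccnb1 at 11.4 and 3.93 CPM, reached 10 CPM only in the iron-negative library. The others so measured were Rrm2, Dut, Uhrf1, Nusap1, Cdca3, Cdca8, Ccna2, Ccnb2, Cenpe, Cenpf, Plk1 and Tpx2. All of these were among the 23. They were measured through the library where they were higher, so the count is no support for the difference. Here too 3 of the 295 iron-negative cells held 46.5% of their G2M UMIs, the shares were 13 of 281 and 14 of 723 cells with overlapping intervals, and without the 5% of phagocytes with the most UMIs the sums were 197 and 173 CPM.

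In Fcrls Cx3cr1 cells the G2M sum was higher in the iron-positive library, at 1098 and 1359 CPM (log2 0.31, 0.28 to 0.34). All 18 G2M genes were above 0 there, and 10 of 16 measured S genes, where 40.0% of all genes were. Of 36 measured members, Plk1 alone was higher by at least 1.5-fold, at 18.98 and 29.7 CPM (0.446% of all genes were), and none was lower (0.128%). The difference was larger without the 5% of phagocytes with the most UMIs, at 807 and 1165 CPM. In Il1r2 Ifitm1 cells the G2M sums were 378 and 567 CPM (log2 0.59, 0.53 to 0.65), and 10 of 33 measured members were higher by at least 1.5-fold (1.06% of all genes) and none lower (0.465%). These 4 states were chosen for their ratios after the values were seen, so the counts describe them and support nothing further.

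The fractions also differed in the states they held. Fcrls Cx3cr1 cells were 21.8% (20.9 to 22.7) of iron-negative and 8.49% (7.89 to 9.12) of iron-positive phagocytes, and Mmp12 Cd36 cells were 1.86% (1.59 to 2.16) and 16.7% (15.9 to 17.6). Fcrls Cx3cr1 cells supplied 36.0% of the G2M-positive phagocytes of the iron-negative library and 20.6% of those of the iron-positive library. The G2M-positive shares of the states in the iron-positive library were also put in the state proportions of the iron-negative library. By that mix 11.9% of iron-positive phagocytes would be G2M-positive, against 9.17% as found and 9.88% in the iron-negative library. The iron-negative shares in the proportions of the iron-positive library gave 8.84%, nearer to the value as found. The S-positive shares were not put in another mix. Within the states their intervals overlapped between the libraries in all but Mmp12 Cd36 cells (11.5%, 6.94 to 17.5, and 4.26%, 3.21 to 5.54). They were higher in the iron-positive library in Fcrls Cx3cr1 (21.6% and 22.5%), MHC class II, Il1r2 Ifitm1 and Gbp2b Serpina3g cells. In the other states and in cells with no state they were lower. With all states weighted equally the log2 ratio of the G2M sum was 0.12, the reverse of the -0.13 over all phagocytes, and that of the S sum was -0.12. By state, the S sum went both ways. Its log2 ratio was 0.062 in Fcrls Cx3cr1, 0.19 in MHC class II, 0.23 in Il1r2 Ifitm1 and 0.088 in Gbp2b Serpina3g cells. It was -0.94 in Mmp12 Cd36, -0.51 in Cd209f Cd163 Lyve1, -0.40 in Mmp9 Pdpn Arg1 and -0.34 in Retnla Cbr2 cells. Also below 0 were type I interferon (-0.076), Ly6c2 Plac8 (-0.033) and no-state cells (-0.046).

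The members varied over the states to different degrees. The ratio of the highest to the lowest state had a median of 3.15 for the 18 S genes and 5.25 for the 18 G2M genes in the iron-negative library, and 4.32 and 8.08 in the iron-positive library. Pcna varied least, by 1.93-fold and 1.91-fold. Nusap1 varied most in the iron-positive library, by 12.9-fold, from 5.57 CPM in Cd209f Cd163 Lyve1 cells to 72.0 CPM in Fcrls Cx3cr1 cells. Pclaf, although an S gene, varied by 10.2-fold there, from 16.97 to 173 CPM in the same states. All 18 G2M genes were highest in Fcrls Cx3cr1 cells in both libraries. Of the 18 S genes, 14 were highest in that state in the iron-negative and 16 in the iron-positive library. How many of all genes were highest there, and how far all genes varied over the states, was not counted. These counts and ratios therefore describe the members only.

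The lowest state for the G2M genes differed between the libraries. In the iron-negative library 14 of the 18 were lowest in Ly6c2 Plac8 cells, where Mki67 was at 26.4 CPM against 152 CPM in Fcrls Cx3cr1 cells. In the iron-positive library 14 of the 18 were lowest in Cd209f Cd163 Lyve1 cells, where Top2a was at 25.5 CPM against 269 CPM in Fcrls Cx3cr1 cells. The share of all genes lowest in these states was not counted either. In 8 of the 10 states the S sum was above the G2M sum in both libraries, all but Fcrls Cx3cr1 and Mmp9 Pdpn Arg1. In Ly6c2 Plac8 cells these were sums of 468 and 202 CPM in the iron-negative and 458 and 276 CPM in the iron-positive library. Cdt1 was at 47.2 and 39.4 CPM in these cells, close to its level over all phagocytes.

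**Figure D4:**
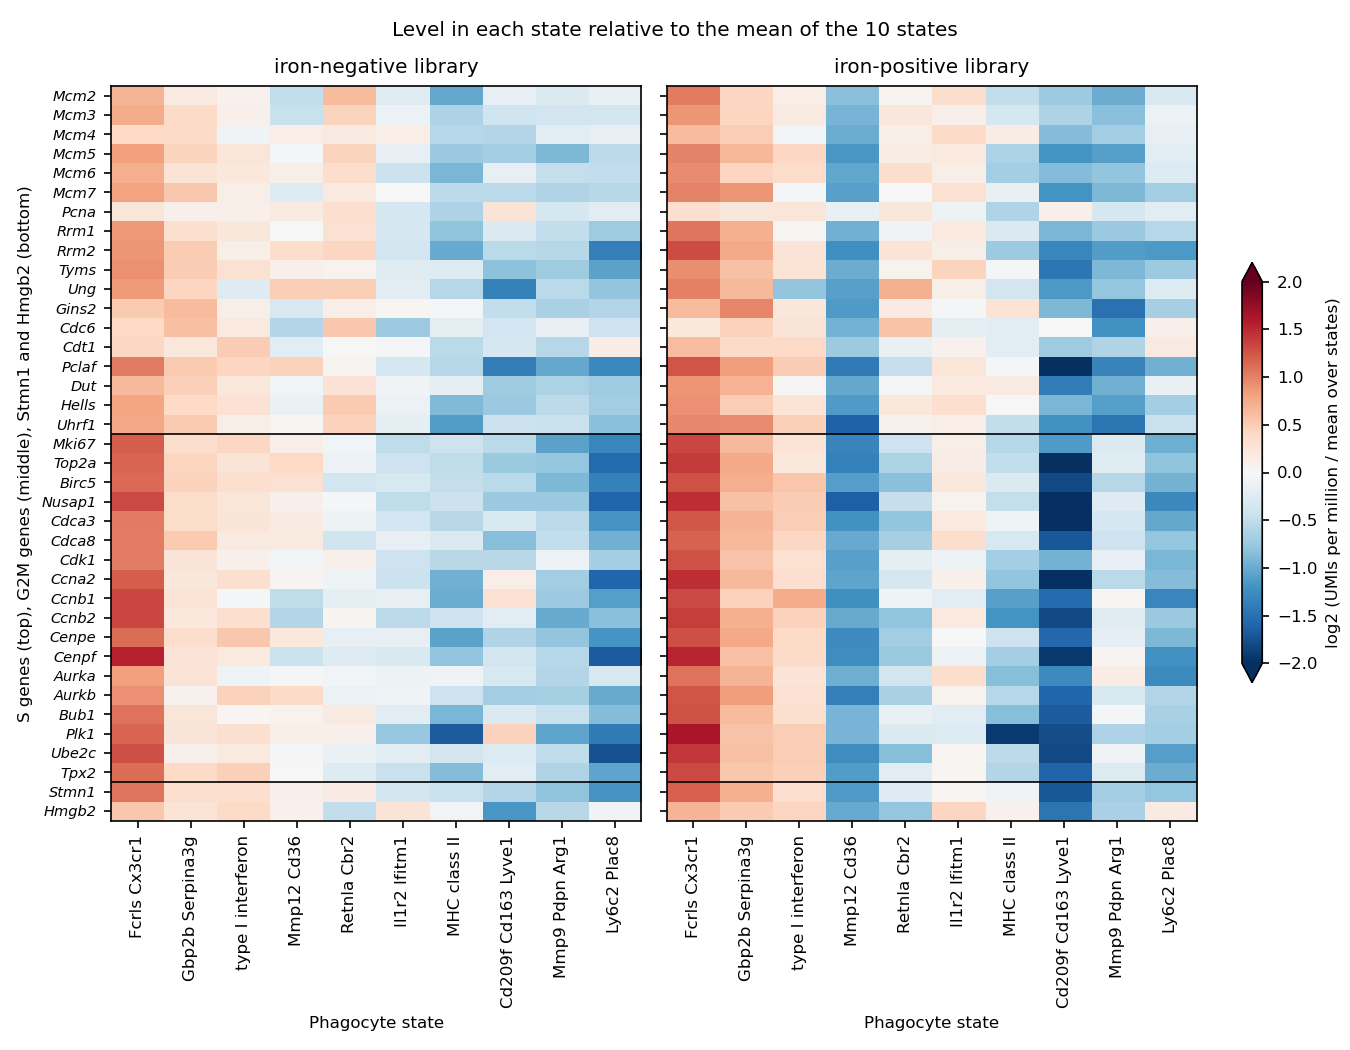
Level of each member in each of the 10 phagocyte states relative to its mean over the states, as a log2 ratio, in the iron-negative (left) and iron-positive (right) library (red above, blue below the mean). The Fcrls Cx3cr1 column is red throughout, the Pcna row is pale, and in the iron-positive library the Cd209f Cd163 Lyve1 column is bluest for the G2M genes.

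G2M-positive phagocytes were compared with the other phagocytes for genes that the call did not use. All 31 mitosis genes and all 20 further genes of S phase and replication were higher in G2M-positive cells of both libraries, as were all 5 histones. Of all genes with a UMI in these cells, 48.0% were higher in G2M-positive cells of the iron-negative and 45.7% in those of the iron-positive library. The motor Kif11 was at 115 CPM in positive and 2.97 CPM in other iron-negative cells, and at 111 and 2.49 CPM in iron-positive cells. Hmmr, a spindle protein, was 48.2-fold and 47.3-fold higher. The histones summed to 50.1-fold and 33.3-fold higher levels. Among the S members, Pclaf was 21.7-fold and 23.5-fold higher and Rrm2 15.8-fold and 16.95-fold, while Mcm4 was 2.08-fold and 2.60-fold and Ung 1.24-fold and 1.97-fold higher. Stmn1 was 12.1-fold and 14.3-fold and Hmgb2 6.00-fold and 6.58-fold higher. The CDK inhibitor Cdkn1a was 0.85 and 0.82 times its level in other cells.

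Of 3 defining phagocyte genes, C1qa was higher and Csf1r and Lyz2 lower in G2M-positive cells, by less than 1.5-fold each. C1qa was at 4876 CPM in positive and 4706 CPM in other iron-negative cells, and at 4480 and 3856 CPM in the iron-positive library. Csf1r was at 595 and 720 CPM and at 461 and 540 CPM. Lyz2 was at 4422 and 5755 CPM and at 4649 and 6561 CPM. Their median depth was 19908 against 13249 UMIs in the iron-negative and 16755.5 against 10177 UMIs in the iron-positive library. Doublets of phagocytes were not removed, and their part in the depth was not tested.

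3 genes of iron and heme handling, picked with earlier results known, were lower in the G2M-positive cells of both libraries. Hmox1, which opens heme and frees its iron, was at 408 CPM in positive and 1651 CPM in other iron-positive phagocytes, and at 183 and 419 CPM in iron-negative phagocytes. Slc40a1, the iron exporter, was at 31.1 and 114 CPM in the iron-positive library. Fth1, ferritin heavy chain, was at 16272 and 24675 CPM there. The positive cells also differed in state genes: Cx3cr1 was at 281 CPM against 130 CPM, Mmp12 at 168 against 609 CPM, Cd163 at 7.40 against 63.6 CPM and Ly6c2 at 15.3 against 74.8 CPM in the iron-positive library. Whether iron genes differ between positive and other cells of 1 state was not tested.

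**Figure D5:**
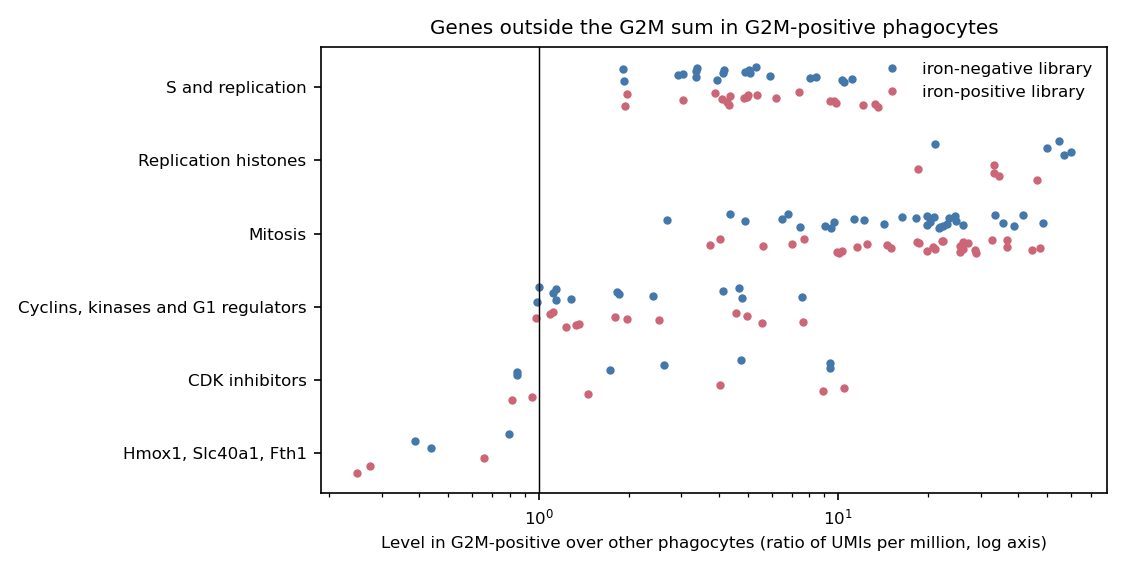
Each point is 1 gene that the G2M call did not use, at the ratio of its level in G2M-positive over other phagocytes (log axis, CPM in both), in the iron-negative (blue) and iron-positive (red) library. All mitosis, replication and histone genes lie right of the line at 1, and Hmox1, Slc40a1 and Fth1 lie left of it. Genes with 3 or fewer UMIs in either set of cells are not drawn.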

How the data were processed

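Raw UMI counts, unnormalized, were taken as deposited, which the values (whole numbers) bear out. They came from 2 libraries made with the 3' v3 chemistry, per the labels' protocols. The submitters' processing notes give Cell Ranger 3.1.0 and mm10, while the file headers give Cell Ranger 5.0.0. Which made the counts was not settled, and no source used here gives the annotation release.

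Cells with at most 15% mitochondrial UMIs were kept. A class needed a number of its listed markers (8 of 12 for phagocytes, 6 of 10 for endothelial cells and pericytes, 6 of 12 for mesenchymal cells, 4 of 12 for T or NK cells, 4 of 8 for neutrophils), at least 80 marker UMIs per 10000 (phagocytes, neutrophils) or 10 (the others), and low levels of the markers of other classes. Pericyte levels left out Acta2 and Tagln. No doublet caller was run: cells with markers of 2 classes went to the mixed cells, and doublets within a class remain. UMIs were summed per class and library, and members at 10 CPM in either library were measured. Counts of genes by their ratio between the libraries, and medians of these ratios, used each count plus 0.5. The log2 ratios printed for single genes and for sums had nothing added. A state needed at least 2 UMIs of its list. Thinning to 2000 UMIs used a fixed seed. Coordinates are those of mm10 (GRCm38) and promoters are from RefSeq.

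With 1 library per group no test was made. The members, the lists and the states were chosen with earlier results of these data known. The gate limits were set over several looks at these data, which also showed the class sums, and the state limit and the genes compared in G2M-positive cells were likewise set with values seen. For every member, values in phagocytes are given; in each other class the 3 members with the highest CPM in the iron-positive library are named, and from each further list the 3 with the largest ratio in phagocytes. Genes named beyond this rule were chosen after their values were seen. The ratio and thinning steps were tested on simulated data. Sums, intervals and figures were made in Python 3.11.15 with scipy 1.17.1 and numpy 2.4.6 for the statistics, pandas 2.3.3 for tables and matplotlib 3.10.9 for plots.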

Additional observations from a re-analysis of the deposited data

Results flagged for a closer look

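The G2M sum of the phagocyte states did not move in 1 direction between the fractions. Its log2 ratio of iron-positive over iron-negative was 0.31 in Fcrls Cx3cr1, 0.13 in MHC class II, 0.45 in Ly6c2 Plac8, 0.59 in Il1r2 Ifitm1, 0.22 in type I interferon, 0.46 in Gbp2b Serpina3g, 0.58 in Mmp9 Pdpn Arg1 and 0.054 in cells with no state. It was -1.22 in Mmp12 Cd36, -1.09 in Cd209f Cd163 Lyve1 and -0.31 in Retnla Cbr2 cells. In type I interferon, Mmp9 Pdpn Arg1 and Retnla Cbr2 cells the share of G2M-positive cells went the other way, so no order was read for them. Without the 5% of cells with the most UMIs the direction also turned in MHC class II (260 and 203 CPM) and Mmp9 Pdpn Arg1 cells (264 and 261 CPM). With the state at 2 SD it turned in Gbp2b Serpina3g (401 and 312 CPM), Mmp9 Pdpn Arg1 (55.7 and 43.3 CPM) and Mmp12 Cd36 cells (114 and 155 CPM). The counting interval of each reported ratio excluded 0, but the difference between states was not tested, since each group is 1 library.

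G2M transcripts were also found in barcodes that the comparisons left out, above the level that a count of 0 allows. The unassigned barcodes had a G2M sum of 1162 CPM in the iron-negative and 349 CPM in the iron-positive library, at median depths of 899 and 961.5 UMIs. The mixed cells had 790 and 989 CPM. Barcodes over the mitochondrial limit had 276 and 223 CPM. These barcodes were left out of all class values.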

How the results depend on the processing

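No paired analysis was possible because each group is 1 library. Over 12 results and 83 alternatives, 41 values stayed within the counting interval of the reported value, 7 were member counts that stayed at 0, 32 moved outside the interval and 3 reversed. The log2 ratio of the phagocyte G2M sum reversed with states weighted equally (0.12) and, on marker counts alone, reached 0.0011. It was -0.044 without the 5% of cells with the most UMIs, -0.21 as a mean of each cell and -0.026 scaled by the median ratio over genes. Free RNA was not measured, and with 10% of the profile of all kept cells of the library subtracted in its place the ratio was -0.15. The log2 ratio of the S sum of all phagocytes together stayed below 0: -0.24 without those 5% of cells, -0.30 as a mean of each cell, -0.15 scaled by the median ratio, -0.12 with states weighted equally and -0.19 on marker counts alone. Within some states it was above 0, as given above. In the 8 settings tried for that count, the reported one included, no member was lower by 1.5-fold in iron-positive phagocytes.

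The shares of G2M-positive cells depend on depth and threshold. For iron-negative and iron-positive phagocytes they were 6.39% and 5.78% thinned to 1000 UMIs, 14.2% and 12.4% at 4000 UMIs, 12.8% and 11.8% at 2 or more UMIs, 7.22% and 6.65% at 5 or more, and 7.94% and 7.73% without the 5% of cells with the most UMIs. On marker counts alone the iron-positive share was 9.95%. Iron-positive mesenchymal cells had 11.5% at 1000 UMIs, 28.0% at 4000 and 15.2% at 5 or more UMIs. Endothelial cells had 11.5% at 1000 UMIs, 33.8% at 4000, 28.3% at 2 or more UMIs and 10.8% at 5 or more. Pericytes had 15% at 1000 UMIs, 23.7% at 4000 and 16% at 5 or more UMIs. They had 27.8% on marker counts alone and 13.8% without the 5% of cells with the most UMIs. The log2 ratio of the G2M sum in Mmp12 Cd36 cells reversed to 0.45 with the state at 2 SD and was -0.42 without the 5% of cells with the most UMIs, and that of Cd209f Cd163 Lyve1 cells was -0.18 without them. For Fcrls Cx3cr1 cells it was 0.38 with the state at 0.5 SD, 0.72 at 2 SD and 0.53 without those 5% of cells. The cause of these moves was not tested. The gates, the barcode removal and the state alternatives were chosen after seeing the data. Leaving out barcodes found in both libraries was run for 7 results, all in phagocytes, and moved none of them outside its interval.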
